A study of Beta vulgaris with 6 samples.

Results

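BvSVP, BvAGL24 and BvFUL are the sugar beet MADS-box genes that the study's list of differentially expressed sequences names after Short Vegetative Phase, Agamous-like 24 and Fruitfull. Each was measured by 1 probe with 1 spot on every array, so that 3 of the 53752 probes of the custom array are described here. The members were found by their probe names, P16456 for BvSVP (expressed sequence BQ588867), P25233 for BvAGL24 (BQ488144) and P20370 for BvFUL (BQ584677). They had been selected on the difference between bolting-resistant and bolting-sensitive genotypes in the same arrays, and the group differences below are therefore descriptions without a test. The list places BvSVP and BvAGL24 on the same beet gene model, Bv9_227800_mryh, as transcripts t2 and t1, and BvFUL on Bv5_111780_aoik, so the 3 probes represent 2 gene models. Whether the BvSVP and BvAGL24 probes also bind each other's transcript is not known, since probe sequences were not used here.

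MADS-box genes encode transcription factors that bind DNA as dimers and larger complexes, and many of them control flowering. In Arabidopsis, SVP represses flowering by holding down floral integrator genes such as FT and SOC1. AGL24, its closest relative there, acts in the opposite way and promotes the transition of the shoot apical meristem to flowering. FUL, a member of the Apetala1 group, also promotes the floral transition in Arabidopsis, is switched on in the apex when flowering is induced, and later acts in the growth of the fruit. These roles are from Arabidopsis and were not measured in these beets.

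Shoot apical meristems, 1 per genotype, were taken from 3 bolting-resistant genotypes (numbered 1, 4 and 7) and 3 bolting-sensitive genotypes (2, 3 and 5). All plants were raised at 22 °C with 16 h of light a day for 8 weeks before 9 weeks in the cold (4 °C), so resistant and sensitive plants shared the full cold treatment and no uncooled plants were measured. Genotypes 3 and 7 were each hybridized to 2 arrays, which gave 8 arrays of 1 slide, and the duplicate arrays were averaged. A level is the log2 intensity of a probe minus the 75th percentile of log2 intensity on its array, so that 0 is the 75th percentile and 1 unit is a factor of 2. With 1 meristem per genotype, the spread within a group joins differences between genotypes and between plants, and each mean is only as precise as 3 genotypes allow.

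The 75th percentile itself lay at an intensity of 288 to 423 on the 8 arrays, and 42.6% to 45.0% of the probes were well above background. No spot was saturated. All 3 members passed every quality flag on all 8 arrays, with spot signals 22.0 to 817 times the local background. No gene that defines the meristem was paired with a probe, so the tissue label could not be checked against one. The 2 marker genes that could be named both come from the study's list, which was selected on the difference between these groups, so they had to differ. They did so without overlap, RuBisCO among the 3.60% of retained probes (those passing the flags on all arrays of a group) that were lower and histone H3 among the 3.70% that were higher in all resistant genotypes. The small chain 3B of RuBisCO, a photosynthesis protein abundant in leaves, averaged -2.35 ± 0.95 in resistant and -0.50 ± 0.71 in sensitive genotypes (SD, n = 3 each). Histone H3, a protein that packs DNA, was taken as a marker of dividing cells, though the list does not say which variant it is. It averaged 5.78 ± 0.34 in resistant and 4.31 ± 0.47 in sensitive genotypes. In bulk tissue fewer cells of a type and less RNA per cell cannot be told apart, and the part of either marker in the values of the MADS-box genes was not tested.

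BvSVP was lower in every resistant genotype than in every sensitive one. Its level was 3.16 in genotype 1, 2.33 in genotype 4 and 3.28 in genotype 7, all resistant, against 5.22 in genotype 2, 5.73 in genotype 3 and 3.86 in genotype 5, all sensitive. In linear terms the probe shone at 5.02 to 9.71 times the array's 75th percentile in the resistant genotypes and at 14.5 to 52.9 times in the sensitive ones. Genotypes 2 and 3 stood high together, while the sensitive genotype 5 lay nearer to the resistant genotypes 1 and 7 than to them. The means were 2.92 ± 0.52 in resistant and 4.93 ± 0.96 in sensitive genotypes, a difference of -2.01, or 4.03-fold. Over single pairs of a resistant and a sensitive genotype the difference spanned 0.58 to 3.40 log2 units.

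BvAGL24 followed the same course as BvSVP. Its level was 2.25 in genotype 1, 0.79 in genotype 4 and 2.12 in genotype 7, against 3.65 in genotype 2, 4.19 in genotype 3 and 2.65 in genotype 5. The resistant genotype 4 stood lowest by a wide margin, the sensitive genotype 3 stood highest, and the groups came closest at genotypes 1 and 5, which were 0.40 apart. The means were 1.72 ± 0.81 in resistant and 3.50 ± 0.78 in sensitive genotypes, a difference of -1.78, or 3.42-fold. This separation of the groups was lost with 1 other scaling. It held with quantile normalization, another background correction, either duplicate array and the authors' log2 values. When the arrays were aligned on their medians instead of their 75th percentiles, the groups overlapped by a narrow margin. The resistant genotype 1 lay 7.304 and the sensitive genotype 5 lay 7.301 log2 units above the array median. At most 45.0% of the probes were well above background on any array, so the median itself fell among probes that were not.

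BvFUL ran the other way and was higher in every resistant genotype. Its level was 3.40 in genotype 1, 2.67 in genotype 4 and 3.18 in genotype 7, against 2.22 in genotype 2, 1.58 in genotype 3 and 2.41 in genotype 5. The sensitive genotype 3, which had the highest BvSVP and BvAGL24 levels, had the lowest BvFUL level. The means were 3.08 ± 0.38 in resistant and 2.07 ± 0.43 in sensitive genotypes, a difference of 1.01, or 2.02-fold. The range over the 6 genotypes was 1.82 for BvFUL (3.53-fold), against 3.40 for BvSVP and 3.39 for BvAGL24 (both 10.5-fold). Without genotype 3 the range of BvFUL was 1.18, and without genotype 4 that of BvAGL24 was 2.06.

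**Figure D1:**
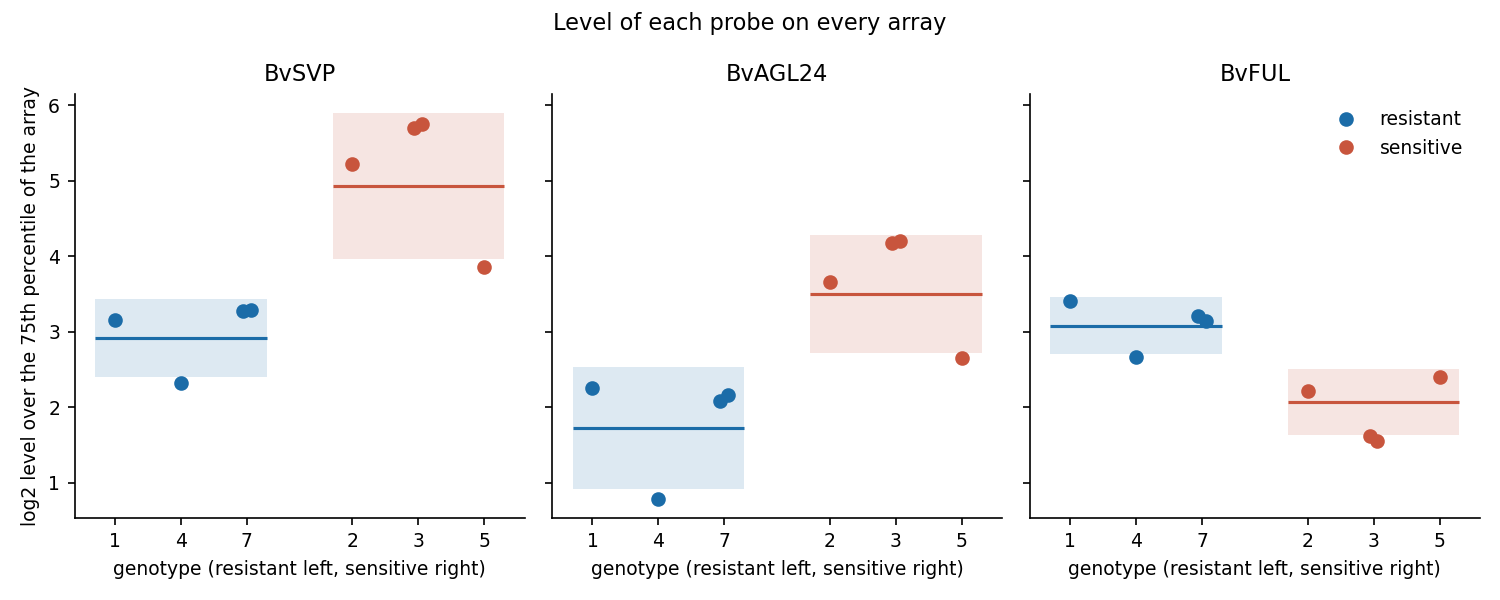
Log2 level over the array's 75th percentile (y axis) of BvSVP, BvAGL24 and BvFUL in the resistant (blue) and sensitive (red) genotypes (x axis); each point is 1 array, lines are group means and bands 1 SD over 3 genotypes. The blue points lie below the red ones for BvSVP and BvAGL24 and above them for BvFUL, with genotypes 4 and 5 closest for BvFUL.

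As background, the groups did not overlap, with resistant genotypes lower, for 3.60% of the 22314 retained probes (803), and with resistant genotypes higher for 3.70% (825). A mean difference over 2-fold without overlap was found in 0.829% (185 probes, resistant lower) and 0.753% (168 probes, resistant higher). The 3 members fall in these classes by the way they were chosen. BvFUL lay close to the 2-fold limit and fell under it without genotype 1, 3 or 7 (0.77 without genotype 3) and with another background correction (0.95).

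How far neighbouring genotypes could be told apart was judged by the duplicate arrays. For the members the first and second arrays differed by no more than 0.0747 log2 units, while over all retained probes 95% of duplicate differences were under 0.31. Of the 9 pairs of a resistant and a sensitive genotype, all 9 differed by more than 0.31 for BvSVP, all 9 for BvAGL24 and 8 for BvFUL. All 9 pairs did so, in either direction, for 5.73% of the retained probes and at least 8 for 14.2%, and the members were chosen for this difference, so nothing is read from their counts. The exception was BvFUL in the resistant genotype 4 and the sensitive genotype 5, which were 0.26 apart. Against probes within 1 log2 unit of the member's own mean level, where 95% of differences were under 0.14 for BvSVP and 0.15 for BvAGL24 and for BvFUL, that gap was beyond the duplicate error.

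The order of levels for BvSVP was genotype 3, 2, 5, 7, 1 and 4 from high to low, and only genotypes 7 and 1 (0.12 apart) did not differ beyond either limit. For BvAGL24 the order was 3, 2, 5, 1, 7 and 4, with genotypes 1 and 7 (0.13 apart) not separable. For BvFUL it was 1, 7, 4, 5, 2 and 3. There the steps between genotypes 1 and 7 (0.22) and between 5 and 2 (0.19), like that between 4 and 5, were under the limit over all retained probes and above the limit of like-bright probes. These limits cover only the spread between 2 arrays of the same sample, and whether the duplicates were labelled separately is not stated. A second meristem of a genotype was not measured.

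All 3 probes were among the brighter part of the detected probes in each genotype. BvSVP lay between the 69.4th and 78.1st percentile in the resistant genotypes and between the 82.2nd and 90.9th in the sensitive ones. BvAGL24 spanned 52.5 to 69.6 in the resistant and 73.5 to 83.0 in the sensitive genotypes. BvFUL spanned 72.5 to 79.3 in the resistant and 60.8 to 71.2 in the sensitive genotypes. On the dimmest array for BvAGL24, that of genotype 4, the probe ranked 11046 of 23237 detected probes, while BvSVP in genotype 3 ranked 2061 of 22909 on the second array. Percentiles give the brightness of a probe, which depends on the probe as well as on the transcript, and do not order the transcripts of different genes.

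**Figure D2:**
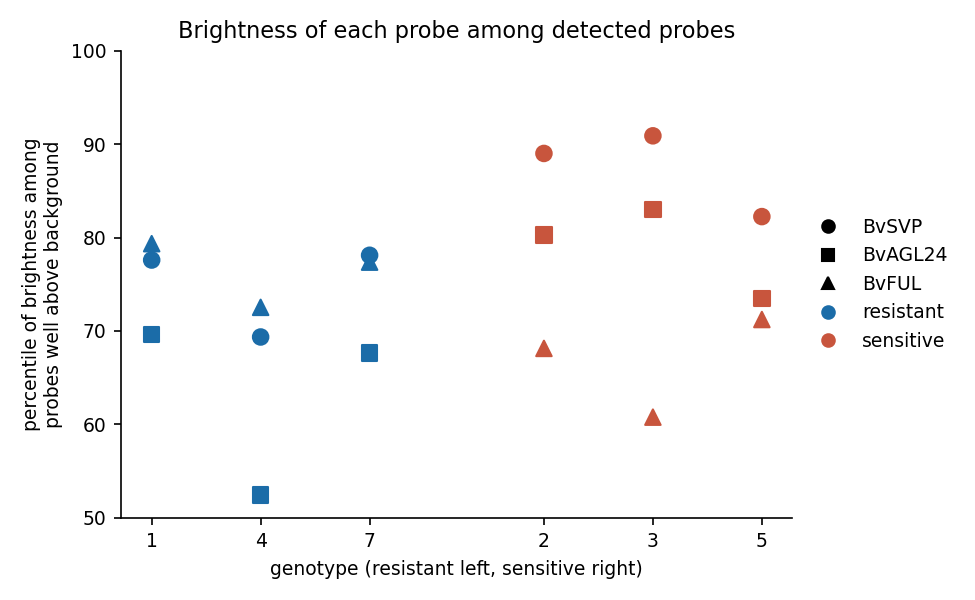
Percentile of brightness among the probes well above background on the array (y axis, starting at 50) for BvSVP (circles), BvAGL24 (squares) and BvFUL (triangles) in each resistant (blue) and sensitive (red) genotype (x axis). BvAGL24 in genotype 4 is lowest at 52.5 and BvSVP in genotype 3 highest at 90.9, and each symbol is to be read across genotypes only.

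The balance between BvFUL and BvSVP was taken as the log2 difference of both probes on the same array, which cancels any single scaling factor of the array. Its zero has no meaning because the probes differ, so it was compared between genotypes only. The balance was 0.24 in genotype 1, 0.34 in genotype 4 and -0.10 in genotype 7, against -2.995 in genotype 2, -4.14 in genotype 3 and -1.45 in genotype 5. The resistant genotypes lay within 0.43 log2 units of each other, whereas the sensitive genotypes were spread over 2.69. The means were 0.16 ± 0.23 in resistant and -2.86 ± 1.35 in sensitive genotypes, a difference of 3.02, or 8.13-fold, and the closest resistant and sensitive genotypes (7 and 5) were 1.36 apart. That the balance separates the groups more widely than its members follows from their choice in opposite directions. The duplicate arrays moved the balance by 0.12 in genotype 3 and 0.08 in genotype 7. In genotype 4, where BvSVP, BvAGL24 and BvFUL were each lowest among the resistant genotypes, the balance was not low.

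The balance of BvFUL over BvAGL24 showed the same order of groups. It was 1.15 in genotype 1, 1.87 in genotype 4 and 1.06 in genotype 7, against -1.43 in genotype 2, -2.60 in genotype 3 and -0.25 in genotype 5. The means differed by 2.79, or 6.91-fold. Genotype 5 was again the sensitive genotype nearest to the resistant ones, at 1.31 from genotype 7. From the sensitive genotype 3 to the resistant genotype 4 the balance spanned 4.48 log2 units for BvFUL over BvSVP and 4.47 for BvFUL over BvAGL24, or 22.3-fold and 22.2-fold.

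**Figure D3:**
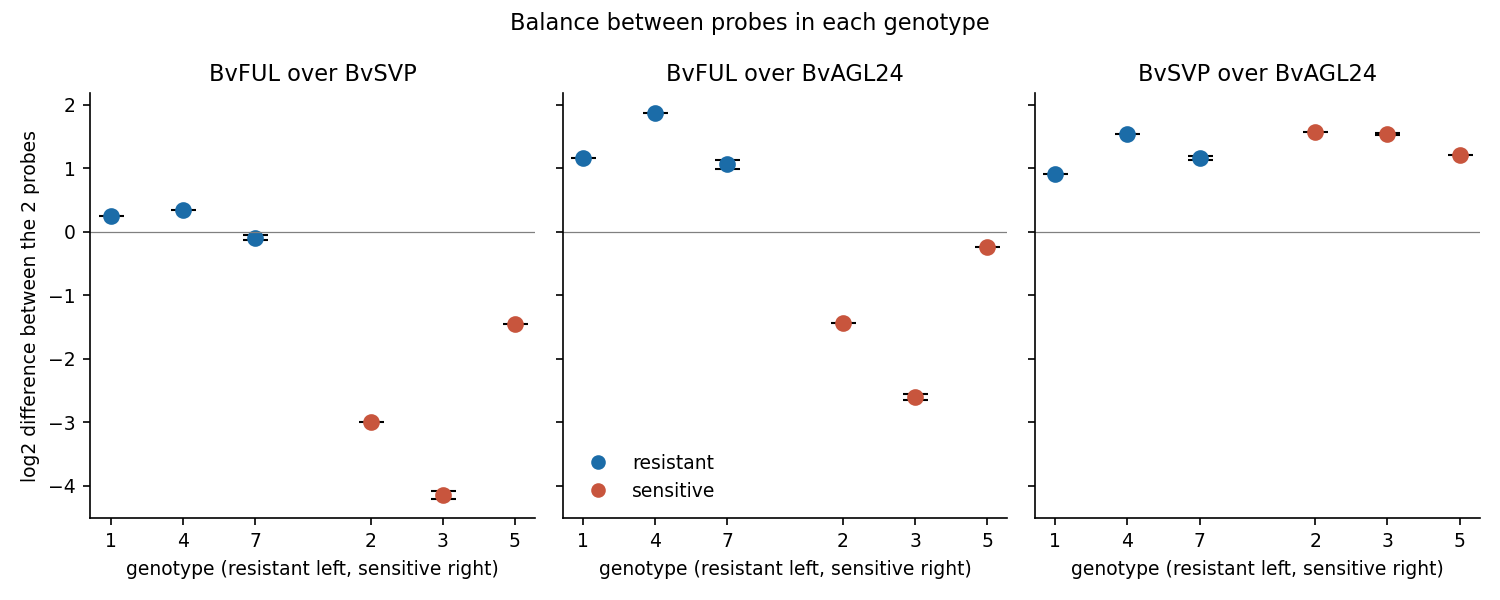
Log2 difference between 2 probes (y axis) in each resistant (blue) and sensitive (red) genotype (x axis) for BvFUL over BvSVP, BvFUL over BvAGL24 and BvSVP over BvAGL24; black ticks are single arrays. The blue points lie above the red ones in the first and second panels, and all genotypes lie between 0.91 and 1.56 in the third.

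The distance between BvSVP and BvAGL24 varied less over the genotypes than either level did. The balance of BvSVP over BvAGL24 was 0.91 in genotype 1, 1.53 in genotype 4 and 1.16 in genotype 7, against 1.56 in genotype 2, 1.54 in genotype 3 and 1.21 in genotype 5. It ranged over 0.65 log2 units, while each of both probes ranged over more than 3. The duplicate arrays moved this balance by 0.03 in genotype 3 and 0.06 in genotype 7, so its range went beyond the duplicate error. The group means were 1.20 ± 0.32 in resistant and 1.44 ± 0.20 in sensitive genotypes, and the groups overlapped.

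The contrast between the groups had been used to choose both probes, which the list places on the same gene model. Their likeness was therefore also measured on what remained within the groups. Each genotype was expressed as a deviation from the mean of its own group. BvSVP deviated by 0.24, -0.59 and 0.36 in resistant genotypes 1, 4 and 7, and by 0.28, 0.79 and -1.07 in sensitive genotypes 2, 3 and 5. BvAGL24 deviated by 0.53, -0.93 and 0.40 in genotypes 1, 4 and 7, and by 0.16, 0.69 and -0.84 in genotypes 2, 3 and 5. The sign was the same in all 6 genotypes, though deviations cancel out within each group, so these signs are not independent. The root mean square difference between both profiles was 0.22 log2 units, compared with a root mean square deviation of 0.63 for BvSVP and 0.65 for BvAGL24 themselves. By this measure BvAGL24 was the 16th most like BvSVP of the other 22313 retained probes, and BvSVP the 18th most like BvAGL24.

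BvFUL shared the sign of these deviations in 4 of the 6 genotypes. Its deviations were 0.32, -0.42 and 0.10 in resistant genotypes 1, 4 and 7, with genotype 4 lowest as for the other probes. In sensitive genotypes 2, 3 and 5 they were 0.15, -0.49 and 0.34, where the sign was opposite to that of BvSVP in genotypes 3 and 5. The root mean square difference from BvSVP was 0.79, which placed BvFUL at 14324 of 22313 probes, and that from BvAGL24 was 0.73, at 10496 of 22313.

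The study's list held 32 pairs of probes that share a gene model, over 17 gene models, and the BvSVP and BvAGL24 pair was the 14th most alike of them within groups. The pairs ranged from 0.063 to 1.82 with a median of 0.23. In 13 pairs the probes were more alike than BvSVP and BvAGL24, and in 18 they were less alike. Pairs of the same gene model can share probes and are not separate cases. All pairs of the gene model Bv7u_181680_otyh were among the less alike. Probes that vary little within groups can differ only a little, so the rank mixes probes of unlike spread.

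The brightness of the arrays moved with these deviations in part. The 75th percentile was at an intensity of 418 for genotype 1, 288 for genotype 4 and 370 for genotype 7, and of 394, 418 and 345 for genotypes 2, 3 and 5. BvAGL24 followed this order in both groups, as did 2.91% of the retained probes. BvSVP followed it except for the exchange of genotypes 1 and 7, and BvFUL followed it in the resistant group only. The part of array brightness in these deviations was not tested.

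**Figure D4:**
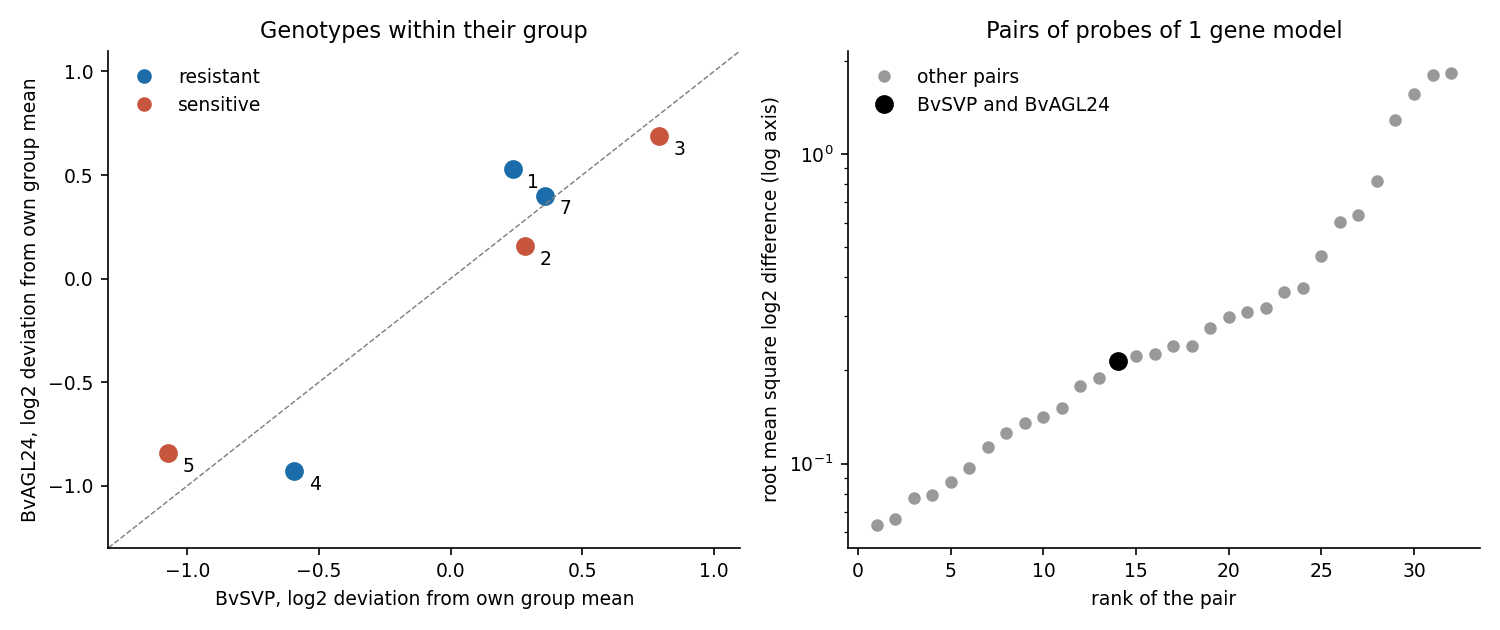
Left, log2 deviation of each genotype from its own group mean for BvSVP (x axis) and BvAGL24 (y axis), numbered by genotype, resistant in blue and sensitive in red, with the line of equality dashed. Right, root mean square log2 difference within groups (y axis, log scale) of the 32 pairs of probes that share a gene model, in order (x axis), where BvSVP and BvAGL24 lie 14th at 0.22.

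The arrays lay in 2 rows of the slide, with resistant genotype 1 and sensitive genotypes 2 and 3 in the first and resistant genotypes 4 and 7 and sensitive genotype 5 in the second. Within the first row the resistant minus sensitive difference was -2.31 for BvSVP, -1.67 for BvAGL24 and 1.50 for BvFUL. Within the second row it was -1.06 for BvSVP, -1.20 for BvAGL24 and 0.52 for BvFUL. The direction was thus the same in both rows, and the size was smaller in the second row. The balance of BvFUL over BvSVP differed by 3.81 in the first row and 1.57 in the second. With 1 or 2 genotypes per group in a row, row and genotype cannot be told apart.

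The 5 retained probes whose level over the 6 genotypes, centred on its mean, was nearest to that of each member were then sought. For BvSVP, BvAGL24 was the nearest of 22313 probes, with a root mean square difference of 0.25 log2 units. It was followed by P24625, which the list describes as an osmotin-like protein, a family of defence and stress proteins (0.35), and by P21972 (0.37), O15958 (0.40) and P18939 (0.44), which the list does not name. For BvAGL24 the nearest were P21972 (0.21), BvSVP (0.25), P24625 (0.32), O15958 (0.33) and P18939 (0.39). The probes P24625, P21972 and O15958 passed the quality flags throughout the sensitive group only, and their resistant levels are near background. Sensitive genotype 5 was as low for O15958 (-3.74, against -3.50 and -3.73 in resistant genotypes 1 and 7). It was also as low for P21972 (-3.56, against -3.54 in genotype 1), so the groups overlapped for both probes. P18939 passed in both groups, with means of 2.10 in resistant and 3.26 in sensitive genotypes. Its groups overlapped too, with sensitive genotype 5 at 2.34 and resistant genotype 7 at 2.41.

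For BvFUL the nearest probes were P16580 (0.199), P20094 (0.199), P15432 (0.20), P29059 (0.21) and P20914 (0.24), of which the list names none. P20094 passed throughout the resistant group only. P16580 averaged 0.94 in resistant and 0.32 in sensitive genotypes, and P20914 averaged -1.33 in resistant and -2.34 in sensitive genotypes. The groups overlapped for P16580, with resistant genotype 4 at 0.55 and sensitive genotype 5 at 0.64. They overlapped for P20094 too, with genotype 4 at -3.09 and genotype 5 at -2.99, and not for P15432, P29059 and P20914. Which probes were nearest depended on single genotypes. Without the sensitive genotype 3, 1 of the 5 probes named for BvSVP and 0 of those for BvAGL24 and for BvFUL were still among the nearest 5, and without the resistant genotype 4 the numbers were 1, 0 and 1.

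**Figure D5:**
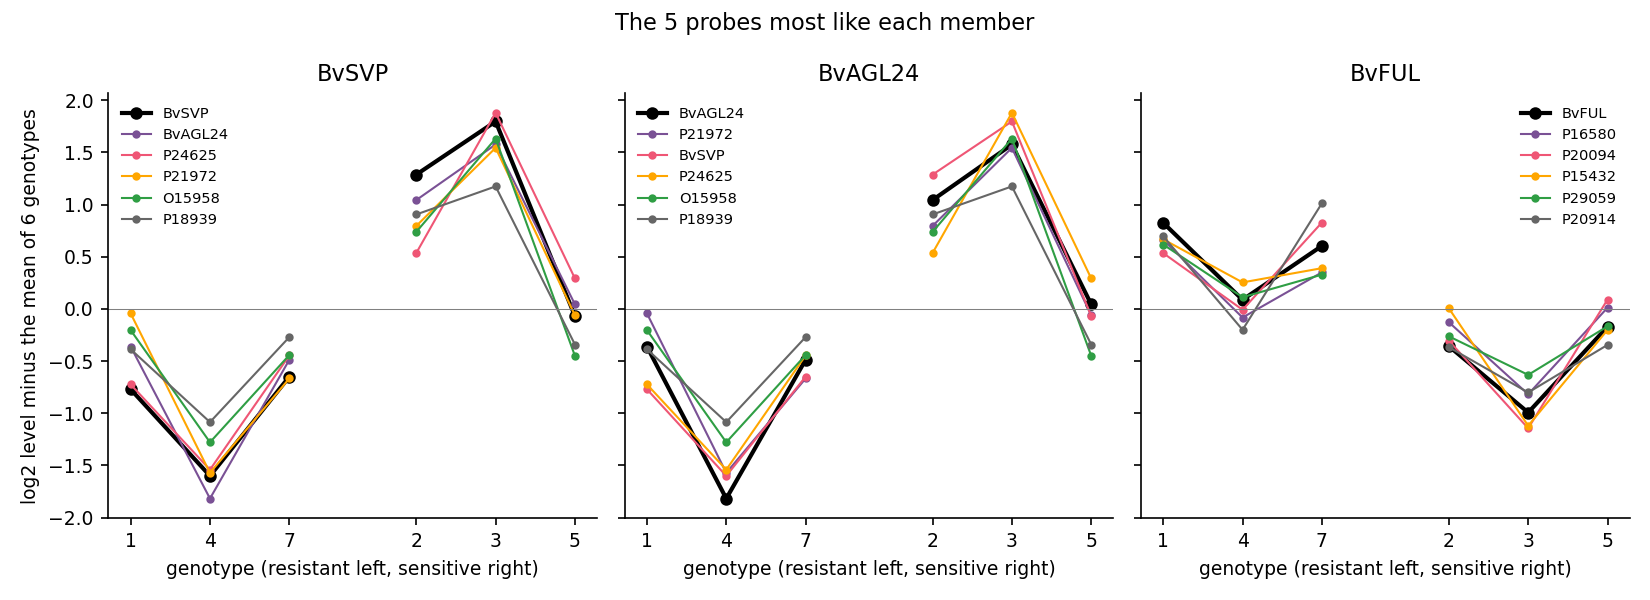
Log2 level minus its mean over 6 genotypes (y axis) of BvSVP, BvAGL24 and BvFUL (thick black lines) and of the 5 probes most like each (thin coloured lines), in resistant (left) and sensitive (right) genotypes (x axis). The lines dip at genotype 4 and peak at genotype 3 for BvSVP and BvAGL24, and dip at genotype 3 for BvFUL.

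Other genes of hormone pathways and transcription in the study's list, 12 probes, were set beside the MADS-box genes. The groups did not overlap for any of the 12, of which 7 were higher and 5 lower in resistant genotypes, against 3.70% and 3.60% of all retained probes. The list was selected on these samples and is no independent evidence of a direction.

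Among the 5 probes that were lower in resistant genotypes were P16535, P517 and P21769. P16535, described as CYP714A1, a cytochrome P450 that deactivates gibberellins in Arabidopsis, averaged 0.21 ± 0.33 in resistant and 1.35 ± 0.26 in sensitive genotypes. P517, described as a gibberellin-regulated protein, averaged 4.44 ± 0.30 in resistant and 5.46 ± 0.25 in sensitive genotypes. The lipoxygenase LOX2 (P21769), an enzyme of jasmonate synthesis, was dim, with -3.50 ± 0.35 in resistant and -2.20 ± 0.26 in sensitive genotypes.

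Among the 7 probes that were higher in resistant genotypes were P15371, P15817, P22988 and P15243. AFB5 (P15371), an auxin receptor, averaged 2.29 ± 0.26 in resistant and 1.26 ± 0.33 in sensitive genotypes. BIG (P15817), which is required for auxin transport in Arabidopsis, averaged 0.87 ± 0.70 in resistant and -0.80 ± 0.76 in sensitive genotypes. The hydroxyjasmonate sulfotransferase (P22988), which inactivates a jasmonate, averaged 0.33 ± 0.04 in resistant and -1.35 ± 1.01 in sensitive genotypes. A heat shock factor (P15243) averaged 2.40 ± 0.17 in resistant and 1.04 ± 0.23 in sensitive genotypes. The other probes of the list differed by -1.12 (P26490, a cytochrome P450) and -1.03 (P1121, similar to an ethylene-forming oxidase). They also differed by 2.00 (P19327, a DNA-binding factor), 1.91 (P22559, a Mediator subunit) and 3.69 (P13417, related to a COP1-interacting protein). P19327 passed the flags on 7 of the 8 arrays and was dim in sensitive genotype 5, at -4.86. The sensitive mean of P13417 was 0.34 ± 2.23, with genotype 2 at 2.89 and genotypes 3 and 5 at -0.70 and -1.19. Resistant genotype 1 stood at 3.65, so the difference of P13417 came mostly from genotypes 3 and 5.

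The array also carried 44 probes named with T, and 26 of these were retained. The paper gives the same numbers of designed and filtered probes for its candidate genes, but no single probe was assigned to a gene here. Of the 26, the groups did not overlap for 1 with resistant genotypes lower and for 0 with resistant genotypes higher, beside 3.60% and 3.70% of all retained probes. Of the 26, 5 had a higher mean in resistant and 21 in sensitive genotypes, beside 51.3% of all retained probes higher in resistant ones. The median difference was -0.20 (0.01 over all retained probes). The paper lists fewer candidate genes than probes designed for them, so several of these probes may stand for the same gene.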

How the data were processed

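Total RNA of 1 meristem per genotype was labelled with a single dye and hybridized to a custom Agilent array. The authors deposited scanner output of Agilent Feature Extraction 10.7 (version from the submitters' processing notes), where spot intensity is linear, background-subtracted and unscaled across arrays. Their log2 values, deposited in a second table after scaling to each array's 75th percentile and each probe's median, served as an alternative. The log2 intensity of the 54252 non-control spots minus the array's 75th percentile was averaged over spots of a probe and over duplicate arrays. A probe was retained (22314 of 53752) if a spot was unflagged, positive and significant, and well above background throughout all arrays of either group. Of these, 20713 passed in both groups.

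The genes named are the 3 members, the 5 retained probes with the smallest root mean square difference from each, and a fixed list of regulators and markers. Members and lists were chosen with earlier results of these data known. Names come from the study's list of sequences. Its annotation columns beyond the gene model were displaced between lines and were not used. Of the members' accessions and gene models, 0 matched the RefSeq gene table, and no sequence or genome position is given. Python 3.11.15 with pandas 2.3.3 was used, and R 4.3.3 with limma 3.58.1 for quantile normalization and normexp background correction (offset 50). The functions were tested on simulated data. Other alternatives were scaling to the median, single duplicate arrays, other filters and leaving out each genotype. Groups came from the sample labels, and no test between them was made.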

Additional observations from a re-analysis of the deposited data

How the results depend on the processing

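No scaling, background correction, choice of duplicate array, use of the authors' table or averaging of linear signals changed the direction of a group difference or moved it by more than the spread between genotypes. Of 100 planned values apart from leaving out genotypes, 91 stayed within that spread (within 1.5 times for counts). Some of them could not move, since scaling to the array median leaves balances and the within-group difference of BvSVP and BvAGL24 unchanged. For the balances the authors' table also gave the same values as the first duplicate arrays. The count is therefore no measure of stability. Scaling to the array median moved the median difference of all retained probes to 0.13, against 0.01, and let the groups overlap for BvAGL24. Leaving out each genotype in turn, the resistant minus sensitive difference ranged from -2.55 to -1.62 for BvSVP, from -2.20 to -1.31 for BvAGL24 and from 0.77 to 1.22 for BvFUL. The balance difference ranged from 2.39 to 3.73 for BvFUL over BvSVP, from 2.20 to 3.38 for BvFUL over BvAGL24 and from -0.40 to -0.09 for BvSVP over BvAGL24. The range over genotypes lay between 2.57 and 3.40 for BvSVP, 2.06 and 3.39 for BvAGL24, and 1.18 and 1.82 for BvFUL, lowest without genotype 4, 4 and 3 in turn. The within-group difference of BvSVP and BvAGL24 lay between 0.15 and 0.23 and the rank of the pair between 13 and 20.

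Within slide rows, a setting added after the data were seen, the difference for BvSVP was -1.06 in the second row, that for BvFUL was 1.50 in the first and 0.52 in the second, and the balances of BvFUL over BvSVP and over BvAGL24 were 1.57 and 1.71 in the second. The balance of BvSVP over BvAGL24, which overlapped between the groups, was -0.64 in the first row and turned to 0.14 in the second. The cause was not tested. Over all non-control probes in place of detected ones, the median percentile over genotypes was 91.2 for BvSVP (80.2 among detected probes), 87.4 for BvAGL24 (71.5) and 87.6 for BvFUL (71.9), since dim probes then count. Measured as 1 minus Pearson's correlation, the within-group unlikeness of BvSVP and BvAGL24 was 0.056, on another scale. Of the 5 probes most like BvSVP, 2 were still among the nearest 5 when only probes passing in both groups were ranked, and 2 by correlation. For BvAGL24 these numbers were 2 and 1, and for BvFUL 1 by correlation. Leaving out a genotype kept 1 to 4 of the 5 for BvSVP, 0 to 4 for BvAGL24 and 0 to 2 for BvFUL. The mean of linear signals gives no range over genotypes and was not run for it. No paired analysis was possible because the labels number all samples alike. Groups of 3 genotypes are too small for an outlier rule.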
